A study of Mus musculus with 6 samples.

Results

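Genes for the clearance of dying cells (efferocytosis) and for scavenging of modified lipoproteins were followed in whole liver. These were the TAM receptor genes *Mertk*, *Axl* and *Tyro3*, the bridging ligand genes *Gas6*, *Pros1* and *Mfge8*, and the scavenger receptor genes *Stab1*, *Cd68*, *Msr1* and *Scarb1*. They were taken by name, for what their products do, and make up 10 of the 55254 genes in the expression table. RNA-seq libraries came from the livers of wild-type (WT) mice, 3 fed CDA-HFD for 7 weeks and 3 fed a normal diet (ND). CDA-HFD is rich in fat, lacks choline and supplies its protein as defined amino acids, and is used to induce steatohepatitis (MASH) and fibrosis in mice. The labels give no age or strain, and the methods of the study describe young adult C57BL/6J mice, with males used for the CDA-HFD model. Each library stands for 1 biological replicate according to its label. The labels call the source liver, although the extraction text written for it mentions sorted cells. Expression is given as TPM, which is corrected for transcript length, so that levels of different genes can be compared within a library.

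A dying cell exposes phosphatidylserine on its surface. The TAM receptors are tyrosine kinases that do not touch this lipid themselves: GAS6 and protein S, the product of *Pros1*, bind it and bridge it to the receptor. MFG-E8, the product of *Mfge8*, bridges the same lipid to integrins, whereas stabilin-1 binds it directly. Scavenger receptors take up oxidised and acetylated lipoproteins and other debris, and SR-BI, the product of *Scarb1*, takes up cholesterol from HDL into hepatocytes. In the liver, Kupffer cells, recruited macrophages and sinusoidal endothelial cells carry most of this clearance.

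Of the 10 genes, 7 rose in CDA-HFD livers and 0 fell. *Mfge8* and *Cd68* rose most, with mean levels 16.3-fold and 15.7-fold those of ND livers, followed by *Axl*, *Gas6*, *Mertk*, *Msr1* and *Stab1*. *Pros1* was 1.90-fold higher, below the fold limit, *Scarb1* was not called, and *Tyro3* was too low to be tested. A gene was called at an adjusted p below 0.05 where its log2 fold change was also at least 1 in size, by limma on log2(TPM + 1) with Benjamini-Hochberg adjustment over all 14730 genes tested. By that rule 21.1% of all genes tested rose and 3.79% fell, and the median log2 fold change was 1.65 over the 9 members tested, against 0.32 over all genes tested. In bulk tissue, fewer cells of a type and less RNA per cell cannot be told apart, nor can more cells and more RNA per cell. The limma p-values set the diet difference against the spread within diets in these 6 libraries, moderated across genes. Every CDA-HFD library lay above every ND library for 8 of the 9 members tested, as it did for 54.9% of all genes tested. Recovered reads per library numbered 16830198 to 18919516 for CDA-HFD and 14125649 to 15301208 for ND.

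**Figure D1:**
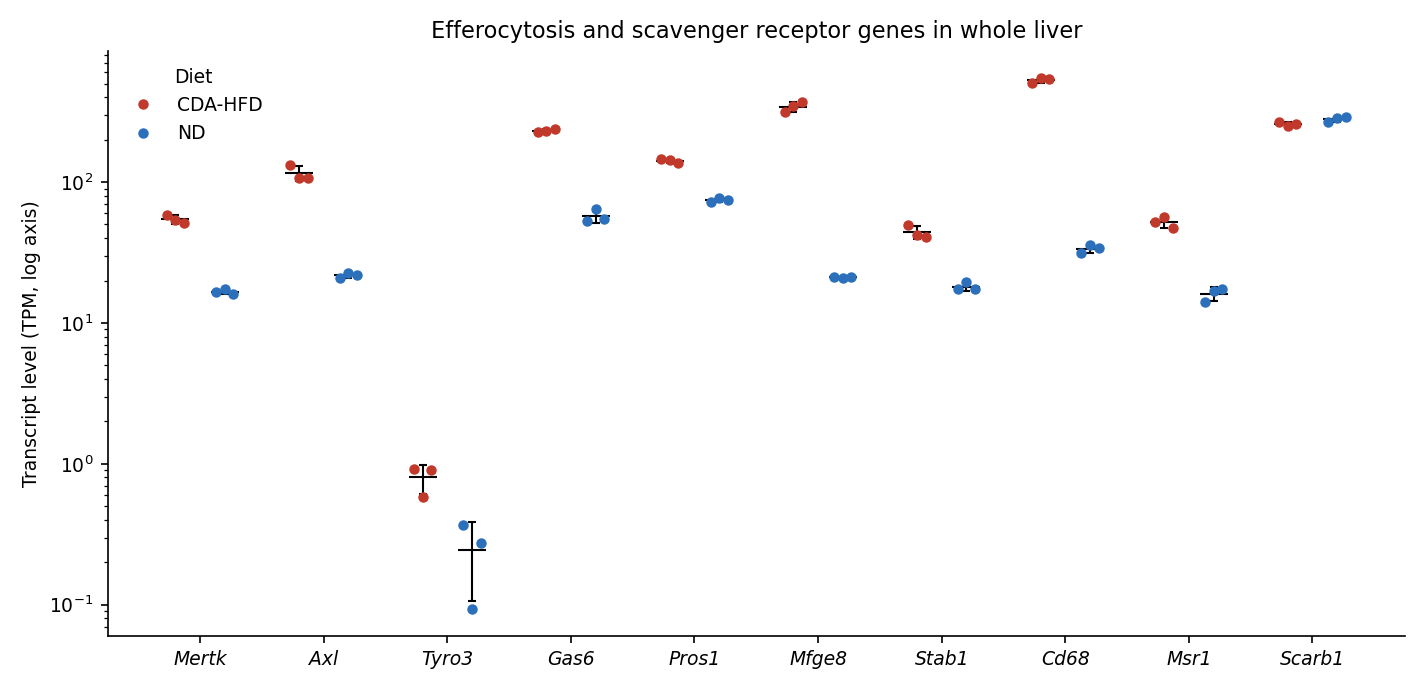
TPM of each of the 10 genes on a log axis, with CDA-HFD left of ND, points for the 6 libraries, and bars for mean ± SD. The CDA-HFD points lie above the ND points for every gene except *Scarb1*, where 266 TPM occurs in both diets.

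The promoters of 4 members are shown, those of *Mfge8* and *Cd68* because they rose most and those of *Axl* and *Mertk* because these related receptors differed in their rise. Each sequence holds the 250 bases before the RefSeq transcription start (GRCm38.p6), 5′ to 3′ on the strand of the gene: *Mfge8* at chr7:79149061-79149310 and *Axl* at chr7:25788734-25788983, both on the minus strand, *Cd68* at chr11:69666171-69666420 on the minus strand and *Mertk* at chr2:128698665-128698914 on the plus strand. Capitals mark matches, on either strand, to the GC box GGGCGG, the core GAGGAA bound by PU.1 (a factor that shapes macrophages) and the AP-1 motif TGANTCA.
*Mfge8*: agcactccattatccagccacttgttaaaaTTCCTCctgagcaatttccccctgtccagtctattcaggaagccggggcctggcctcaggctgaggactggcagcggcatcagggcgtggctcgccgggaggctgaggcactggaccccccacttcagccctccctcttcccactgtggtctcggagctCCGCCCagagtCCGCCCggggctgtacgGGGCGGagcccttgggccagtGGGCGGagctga
*Cd68*: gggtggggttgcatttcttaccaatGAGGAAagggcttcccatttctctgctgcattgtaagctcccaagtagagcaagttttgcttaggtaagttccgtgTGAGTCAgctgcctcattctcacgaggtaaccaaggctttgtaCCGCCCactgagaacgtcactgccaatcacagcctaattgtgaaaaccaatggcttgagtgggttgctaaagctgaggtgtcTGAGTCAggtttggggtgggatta
*Axl*: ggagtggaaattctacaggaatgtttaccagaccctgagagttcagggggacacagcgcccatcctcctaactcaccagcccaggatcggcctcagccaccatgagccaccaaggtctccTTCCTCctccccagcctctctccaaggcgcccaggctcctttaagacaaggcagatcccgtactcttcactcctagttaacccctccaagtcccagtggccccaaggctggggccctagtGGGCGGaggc
*Mertk*: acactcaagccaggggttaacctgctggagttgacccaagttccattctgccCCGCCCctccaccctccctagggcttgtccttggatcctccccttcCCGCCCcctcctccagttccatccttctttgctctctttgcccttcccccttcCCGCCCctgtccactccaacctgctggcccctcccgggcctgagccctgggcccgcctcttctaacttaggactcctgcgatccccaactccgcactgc
The *Cd68* window held 2 AP-1 matches, 18 and 143 bases before the start, together with 1 PU.1 core and 1 GC box. The *Mfge8* window held 1 PU.1 core and 4 GC boxes, the *Axl* window 1 of each, and the *Mertk* window 3 GC boxes and none of the others. Matches of different motifs did not overlap in these windows. Of 32851 RefSeq promoter windows of the same length, 6.75% held the AP-1 motif, 23.3% the PU.1 core and 32.7% the GC box. The E-box CACGTG, present in 6.02% of all windows, and the direct repeat with a 4-base spacer known for LXR, present in 0.0152%, were found in 0 of the 8 members with a window. *Msr1* and *Scarb1* had no entry in the table. A match describes the letters and does not show that a factor binds there.

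The TAM receptor genes were compared first. *Axl* (GRCm38 chromosome 7, 25757273 to 25788705, minus strand) measured 132, 108 and 107 TPM in the CDA-HFD livers, against 20.9, 22.6 and 22 TPM in the ND livers. *Mertk* (chromosome 2, 128698956 to 128802894, plus strand), the receptor that resident macrophages use to engulf dying cells, measured 58.6, 53.6 and 51.0 TPM in the CDA-HFD livers, against 16.7, 17.4 and 16.0 TPM in the ND livers. Diets did not overlap for either receptor, and the lowest CDA-HFD liver stood well clear of the highest ND liver. *Axl* rose by a log2 fold change of 2.35 ± 0.09 (SE; 95% interval 2.13 to 2.56, limma adjusted p = 3.7e-07). *Mertk* rose by 1.65 ± 0.08 (1.46 to 1.83, limma adjusted p = 8.84e-07).

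The *Axl* to *Mertk* ratio was higher in every CDA-HFD liver than in any ND liver. Taken within a library, it is not altered by multiplying all values of a library by a factor, although quantile normalization could alter it and was not run on ratios. It was 2.25, 2.01 and 2.10 in CDA-HFD livers and 1.25, 1.30 and 1.37 in ND livers. The difference was 0.70 ± 0.06 on the log2 scale (SE, n = 3 each). It gave an exact two-sided permutation p of 0.1, the smallest that 3 against 3 libraries allow, and 0.143 after adjustment over the 20 ratios computed. *Axl* made up 67.6 ± 1.24% of the summed TPM of the 3 TAM receptors in CDA-HFD livers and 56.3 ± 1.21% in ND livers (SD, n = 3 each). *Mertk* made up 31.9 ± 1.28% in CDA-HFD livers and 43.1 ± 1.11% in ND livers. The sum itself was 171 ± 18.2 TPM in CDA-HFD livers and 38.8 ± 1.16 TPM in ND livers.

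*Tyro3* (chromosome 2, 119797733 to 119818104, plus strand), the TAM receptor known mainly from the nervous system, contributed 0.469% of that sum in CDA-HFD livers and 0.642% in ND livers. It measured 0.915, 0.584 and 0.904 TPM in the CDA-HFD livers, against 0.369, 0.0931 and 0.276 TPM in the ND livers. These values rest on 33, 20 and 36 reads in the CDA-HFD livers, against 11, 3 and 9 reads in the ND livers. The diets did not overlap, at an exact permutation p of 0.1 (two-sided, n = 3 each). Over pooled reads (89 against 23), the TPM ratio was 3.33, with an exact 95% counting interval of 2.08 to 5.51 that covers counting error only. When the filter on low values was dropped, *Tyro3* was not called, with a log2 fold change of 0.53 ± 0.13 on a scale that understates changes of such low genes.

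Both TAM ligands were present at a higher level than the receptors they bind. *Gas6* (chromosome 8, 13465374 to 13494490, minus strand), whose product binds all 3 TAM receptors, measured 226, 232 and 238 TPM in the CDA-HFD livers, against 53.1, 64.3 and 54.8 TPM in the ND livers. *Pros1* (chromosome 16, 62854307 to 62929346, plus strand), which hepatocytes also secrete as an anticoagulant and which binds MERTK and TYRO3, measured 145, 143 and 137 TPM in the CDA-HFD livers, against 72.0, 77.5 and 74.2 TPM in the ND livers. Neither gene overlapped between the diets, and the CDA-HFD livers differed little among themselves, with SDs of 6.0 TPM for *Gas6* and 4.12 TPM for *Pros1*. *Gas6* rose by a log2 fold change of 2.00 ± 0.08 (1.82 to 2.19, limma adjusted p = 3.65e-07). *Pros1* had a log2 fold change of 0.92 ± 0.06 (0.78 to 1.05, limma adjusted p = 4.19e-06), so that it passed the p threshold but not the fold limit. At that p threshold with any fold, 51.6% of all genes tested were higher in CDA-HFD livers.

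The order of the ligands differed between the diets. The *Gas6* to *Pros1* ratio was 1.56, 1.62 and 1.74 in CDA-HFD livers and 0.737, 0.830 and 0.739 in ND livers. *Gas6* was thus the higher ligand in all 3 CDA-HFD livers and the lower one in all 3 ND livers (log2 difference 1.09 ± 0.07, SE; exact permutation p = 0.1, n = 3 each). It made up 62.1 ± 1.29% of the summed ligand TPM in CDA-HFD livers and 43.4 ± 1.67% in ND livers. The ligand sum was 374 ± 2.2 TPM in CDA-HFD livers and 132 ± 8.73 TPM in ND livers (SD, n = 3 each).

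Around the TAM axis, a list of 16 genes for ligand carboxylation, receptor shedding and feedback had 15 tested members. Of these, 5 rose and 0 fell (median log2 fold change 0.46), against 21.1% and 3.79% of all genes tested (median 0.32). The largest rises were in *Timp3*, an inhibitor of the shedding proteases, at 2.05 ± 0.06, and *Socs3*, a feedback inhibitor of cytokine signalling, at 1.73 ± 0.19. *Adam10*, a protease that sheds receptors from the cell surface, also rose, with 73.3 ± 7.89 TPM in CDA-HFD livers and 30.8 ± 1.12 TPM in ND livers (log2 fold change 1.22 ± 0.09). *Adam17*, which cleaves MERTK, was not called at 0.83 ± 0.09. *Ggcx*, the carboxylase that GAS6 and protein S need for binding phosphatidylserine, averaged 39.3 ± 2.56 TPM in CDA-HFD livers and 72.1 ± 5.19 TPM in ND livers. Its log2 fold change of −0.86 ± 0.08 stayed short of the fold limit, in the opposite direction to both ligands. Under median-of-ratios and quantile scaling, 1 gene of this list fell.

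*Mfge8* (chromosome 7, 79133768 to 79149060, minus strand) measured 316, 346 and 369 TPM in the CDA-HFD livers, against 21.03, 20.9 and 21.3 TPM in the ND livers. The ND livers were nearly identical, and every CDA-HFD liver was far above them. The log2 fold change was 3.96 ± 0.07 (3.80 to 4.13, limma adjusted p = 1.53e-08), at the 99.4th percentile of all genes tested. With 21.1 ± 0.190 TPM, *Mfge8* was level with *Axl* (21.8 ± 0.879 TPM) in ND livers, whereas in CDA-HFD livers its 344 ± 26.7 TPM exceeded every other member but *Cd68*. Of the integrin subunits that receive MFG-E8, *Itgb5* rose with 192 ± 16.1 TPM in CDA-HFD livers and 61.2 ± 2.39 TPM in ND livers (log2 fold change 1.63 ± 0.08). *Itgav* at 0.99 ± 0.15 and *Itgb3* at 0.88 ± 0.13 were not called. The comparison with stellate cell and fibroblast genes depended on the gene chosen. *Mfge8* was higher relative to *Dcn*, the decorin gene, with ratios of 0.249, 0.283 and 0.301 in CDA-HFD livers and 0.0811, 0.0726 and 0.0765 in ND livers (log2 difference 1.85 ± 0.09, exact permutation p = 0.1, n = 3 each). *Dcn*, at a log2 fold change of 2.17 ± 0.06, lay close to the median of its list (2.03), and several markers of the list rose more. Mean levels of *Col1a1* (40.7-fold), *Lum* (18.7-fold), *Pdgfra* (17.9-fold) and *Col3a1* (17.2-fold) in CDA-HFD livers over ND livers all exceeded the 16.3-fold of *Mfge8*. *Mfge8* was thus not higher relative to these genes. The other markers of the list, led by *Pdgfrb* (9.59-fold), had smaller folds than *Mfge8*.

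**Figure D2:**
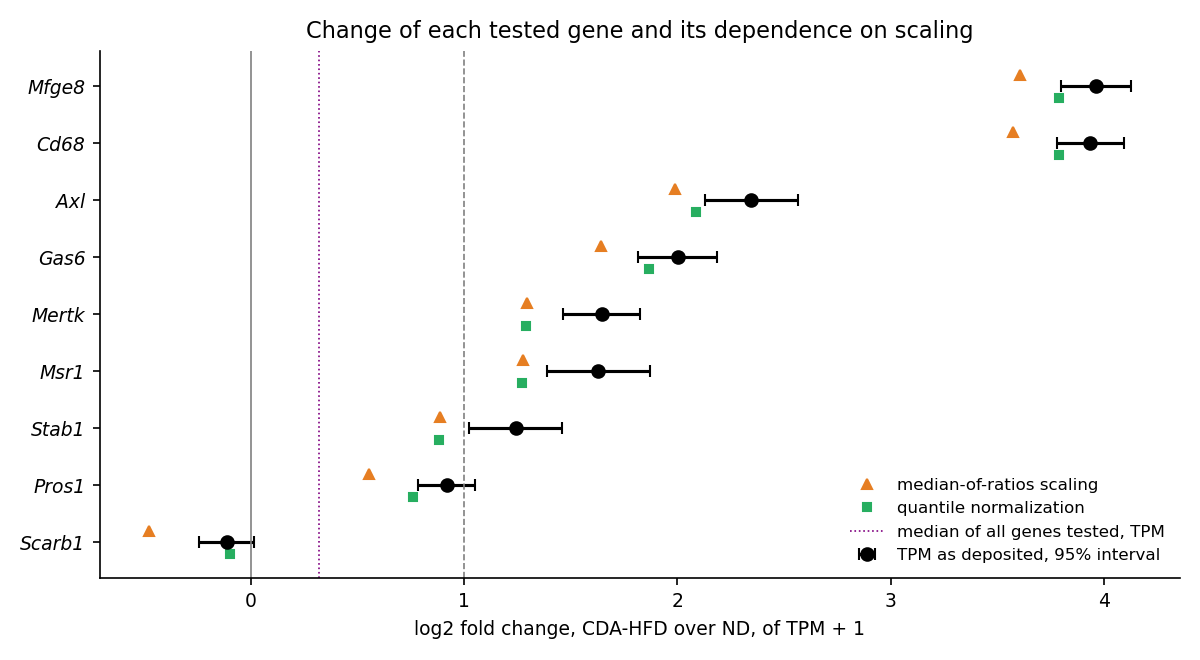
Log2 fold change of CDA-HFD over ND on TPM + 1 for the 9 members tested, with TPM as deposited (black, 95% intervals from limma) beside median-of-ratios (triangles) and quantile scaling (squares), and lines at 0, at the fold limit of 1 (dashed) and at the median of all genes (dotted). *Mfge8* (3.96) and *Cd68* (3.94) stand apart from the other members, and the interval of *Scarb1* (−0.24 to 0.02) includes 0.

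Among the scavenger receptors, *Cd68* (chromosome 11, 69664213 to 69666153, minus strand), which encodes the endosomal and lysosomal glycoprotein macrosialin of macrophages, measured 503, 548 and 540 TPM in the CDA-HFD livers, against 31.4, 35.7 and 34.1 TPM in the ND livers. *Msr1* (chromosome 8, 39581685 to 39642673, minus strand), the class A receptor for acetylated lipoproteins, measured 51.9, 56.3 and 47.3 TPM in the CDA-HFD livers, against 14.0, 16.9 and 17.3 TPM in the ND livers. Both genes were higher in every CDA-HFD liver, but by very different amounts. *Cd68* rose by 3.94 ± 0.07 (3.78 to 4.09, limma adjusted p = 1.44e-08), and *Msr1* rose by 1.63 ± 0.10 (1.39 to 1.87, limma adjusted p = 4.41e-06). *Scarb2*, which encodes the lysosomal membrane protein LIMP-2 of the CD36 family, was at 176 ± 12.2 TPM in CDA-HFD livers and 174 ± 4.77 TPM in ND livers (not called), so that the *Cd68* to *Scarb2* ratio was 2.65, 3.21 and 3.22 in CDA-HFD livers and 0.183, 0.209 and 0.190 in ND livers. *Marco*, a class A receptor of Kupffer cells, averaged 12.03 ± 2.30 TPM in CDA-HFD livers and 8.16 ± 3.20 TPM in ND livers and was not called (log2 fold change 0.55 ± 0.24, limma adjusted p = 0.0745).

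*Stab1* (chromosome 14, 31139013 to 31168641, minus strand), expressed by sinusoidal endothelium and by some macrophages, measured 49.5, 42.2 and 40.8 TPM in the CDA-HFD livers, against 17.5, 19.4 and 17.3 TPM in the ND livers. The diets did not overlap, and the log2 fold change was 1.24 ± 0.09 (1.02 to 1.46, limma adjusted p = 1.15e-05). Its call ended under 2 other scalings, where the log2 fold change was 0.89 (median-of-ratios) and 0.88 (quantile normalization). Its paralog *Stab2*, a hyaluronan receptor of sinusoidal endothelium, averaged 15.3 ± 1.67 TPM in CDA-HFD livers and 21.2 ± 1.96 TPM in ND livers (log2 fold change −0.45 ± 0.11, below the fold limit). The *Stab1* to *Stab2* ratio was 2.88, 2.86 and 2.93 in CDA-HFD livers and 0.846, 0.830 and 0.882 in ND livers, a log2 difference of 1.75 ± 0.03 (exact permutation p = 0.1, n = 3 each). Of the 7999 exon bases of *Stab1*, 112 are shared with *Nt5dc2* on the opposite strand, which averaged 25.7 TPM in CDA-HFD livers and 8.54 TPM in ND livers. The use of strand in counting is not given in the sources used here, so reads in those bases could not be assigned.

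*Scarb1* (chromosome 5, 125277087 to 125341094, minus strand) was the member with the least change. It measured 266, 251 and 258 TPM in the CDA-HFD livers, against 266, 285 and 288 TPM in the ND livers, and the diets overlapped. The log2 fold change was −0.11 ± 0.06 (−0.24 to 0.02, limma adjusted p = 0.105), an interval that leaves room for a modest fall. With median-of-ratios scaling the value was −0.48 (limma adjusted p = 3.59e-04), still within the fold limit. Relative to *Alb*, the albumin gene of hepatocytes, *Scarb1* was 0.19 ± 0.07 higher on the log2 scale in CDA-HFD livers (exact permutation p = 0.1, n = 3 each). The ratios were 0.0214, 0.0188 and 0.0215 in CDA-HFD livers and 0.0171, 0.0185 and 0.0185 in ND livers. The direction depended on the marker chosen. *Apoa1* (−0.05), *Tat* (−0.04) and *Cps1* (0.13) had log2 fold changes above that of *Scarb1*, while the median of the 10 hepatocyte markers was −0.30. *Cd36*, a class B receptor of the same family that takes up fatty acids and oxidised lipoproteins, rose instead, with 606 ± 27.7 TPM in CDA-HFD livers and 57.4 ± 7.76 TPM in ND livers (log2 fold change 3.39 ± 0.10). The *Scarb1* to *Cd36* ratio was 0.431, 0.401 and 0.449 in CDA-HFD livers and 5.28, 4.34 and 5.14 in ND livers, so the order of the pair was opposite in the diets.

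Genes that handle HDL cholesterol beside SR-BI moved in both directions. Of 17 tested, 4 rose and 3 fell, with a median log2 fold change of −0.20. Of all genes tested, 21.1% rose and 3.79% fell, so the count of rises was near the share over all genes. *Soat1*, which esterifies cholesterol, rose by 3.42 ± 0.09 and the efflux transporter gene *Abcg1* by 2.05 ± 0.10. *Soat2*, the paralog of *Soat1*, averaged 26.6 ± 0.336 TPM in CDA-HFD livers and 47.0 ± 2.09 TPM in ND livers. It was not called (−0.80 ± 0.07). *Abcg8* and *Abcg5*, whose products together pump sterols into bile, fell by 2.03 ± 0.13 and 1.99 ± 0.08 on the log2 scale. *Pdzk1*, the adaptor that holds SR-BI at the hepatocyte membrane, averaged 23.0 ± 1.06 TPM in CDA-HFD livers and 31.5 ± 1.39 TPM in ND livers and was not called (−0.44 ± 0.07). Of 20 other scavenger receptor genes tested, 8 rose and 1 fell (median 0.54). *Clec7a*, the dectin-1 gene, and *Scara3* rose most, at 4.87 ± 0.10 and 3.96 ± 0.17. *Cd163*, the haemoglobin scavenger receptor, fell to 0.658 ± 0.157 TPM in CDA-HFD livers, against 15.1 ± 0.276 TPM in ND livers, with 67 against 1327 reads.

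The order of levels among the members differed between the diets. In CDA-HFD livers, the mean level fell in the order *Cd68*, *Mfge8*, *Scarb1*, *Gas6*, *Pros1*, *Axl*, *Mertk*, *Msr1*, *Stab1* and *Tyro3*. The ranges over libraries overlapped for *Mertk* with *Msr1* and for *Msr1* with *Stab1*. Within libraries, *Msr1* was above *Stab1* in every CDA-HFD liver, whereas the order of *Mertk* and *Msr1* differed between livers. In ND livers the order was *Scarb1*, *Pros1*, *Gas6*, *Cd68*, *Axl*, *Mfge8*, *Stab1*, *Mertk*, *Msr1* and *Tyro3*. The neighbours with overlapping ranges were *Axl* with *Mfge8*, *Stab1* with *Mertk* and *Mertk* with *Msr1*. Within libraries, *Stab1* was above *Mertk* in every ND liver, and the order of the other overlapping pairs differed between livers.

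Several members are macrophage genes, and macrophage markers moved with them. Of 12 such markers 11 rose, with a median log2 fold change of 2.99 and a summed level of 5568 to 6093 TPM in CDA-HFD livers and 567 to 646 TPM in ND livers. *Cd63* (5.32 ± 0.08), *Ctss* (3.77 ± 0.08) and *Lyz2* (3.76 ± 0.07) rose strongly, whereas *Csf1r* and *Adgre1*, the receptor for CSF-1 and the F4/80 antigen, rose by 1.63 ± 0.08 and 1.75 ± 0.07. No marker of this list was at 0 in any library, and the part that macrophage numbers had in the members' rises was not tested.

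Set against *Csf1r* within each library, the members differed. The *Mertk* to *Csf1r* ratio was 0.387, 0.361 and 0.370 in CDA-HFD livers and 0.394, 0.354 and 0.334 in ND livers, and overlapped (log2 difference 0.05 ± 0.08, exact permutation p = 0.6, n = 3 each). The *Msr1* to *Csf1r* ratio overlapped too, with 0.342, 0.380 and 0.343 in CDA-HFD livers and 0.331, 0.344 and 0.361 in ND livers (0.03 ± 0.06, exact permutation p = 0.7, n = 3 each). Set against *Adgre1*, both receptors again overlapped between diets, with log2 differences of −0.09 ± 0.06 for *Mertk* and −0.10 ± 0.08 for *Msr1* (exact permutation p = 0.3 for each, n = 3 per diet). *Cd68* was higher relative to these 2 markers, and its ratio to *Csf1r* was 3.32, 3.70 and 3.91 in CDA-HFD livers and 0.743, 0.726 and 0.709 in ND livers. *Axl* was also higher relative to *Csf1r*, at 0.872, 0.726 and 0.776 in CDA-HFD livers and 0.493, 0.460 and 0.458 in ND livers. The *Stab1* ratio was lower, at 0.326, 0.285 and 0.296 in CDA-HFD livers and 0.412, 0.396 and 0.361 in ND livers. These last 3 ratios did not overlap between the diets, each at the smallest exact permutation p of 0.1 (n = 3 each), with log2 differences of 2.32 ± 0.07 for *Cd68*, 0.74 ± 0.08 for *Axl* and −0.37 ± 0.08 for *Stab1*. These patterns hold for the denominators used, since *Csf1r* (3.14-fold) and *Adgre1* (3.46-fold) rose less than most of the 12 macrophage markers. The 15.7-fold difference of *Cd68* between diet means was close to those of *Lyz2* (13.6-fold) and *Ctss* (13.8-fold) and below that of *Cd63* (44.9-fold). *Mertk*, *Msr1* and *Axl*, with log2 fold changes of 1.65, 1.63 and 2.35, lay below the marker median of 2.99. *Csf1r* shares 873 of its 4885 exon bases with *Hmgxb3* on the opposite strand, which averaged 10.5 TPM in CDA-HFD livers and 9.75 TPM in ND livers.

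**Figure D3:**
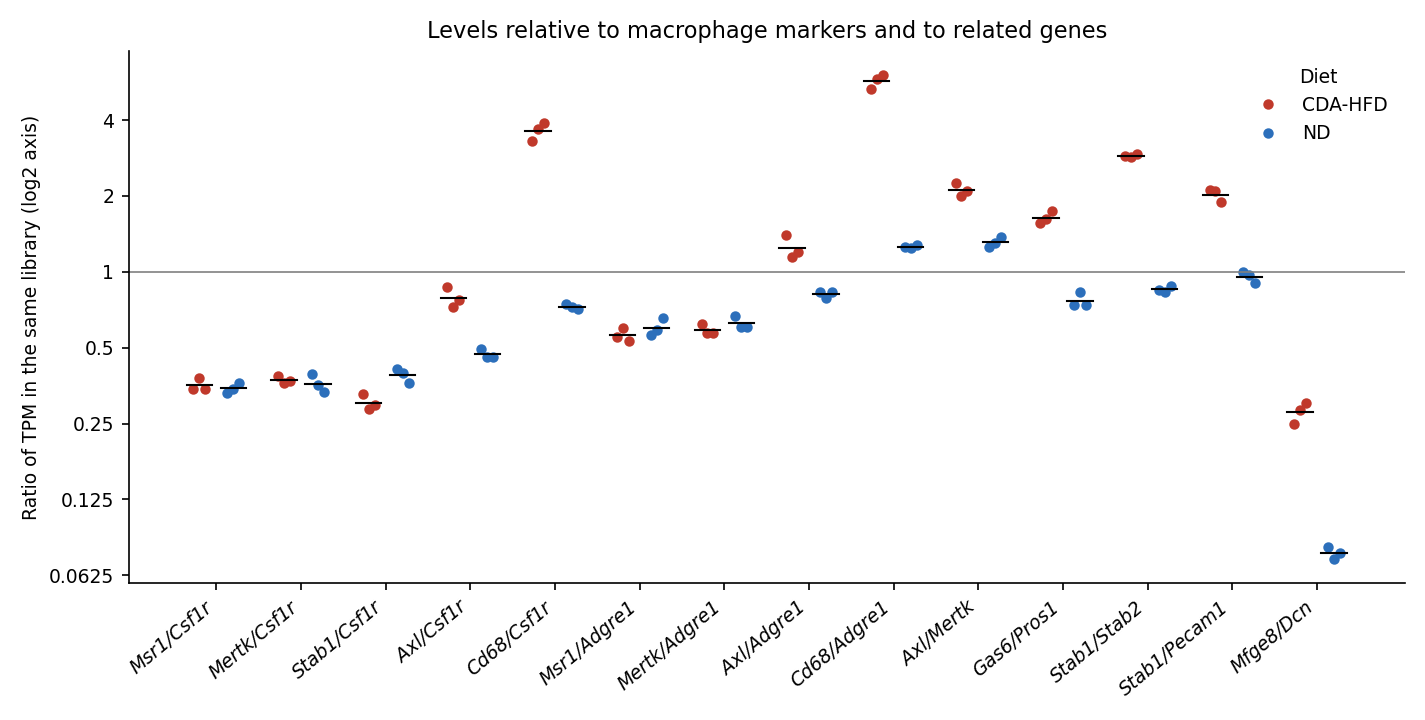
Ratios of TPM within each library on a log2 axis, with CDA-HFD left of ND, points for libraries and bars for their geometric means. *Mertk* and *Msr1* overlap between the diets when set against *Csf1r*, while *Cd68* to *Csf1r* differs by 2.32 and *Mfge8* to *Dcn* by 1.85 on the log2 scale.

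Kupffer cell markers did not rise with the macrophage markers. Of 10 tested, 1 rose (*Id3*, 1.39 ± 0.09) and 4 fell, with a median of −0.41 and a summed level of 843 to 858 TPM in CDA-HFD livers and 760 to 812 TPM in ND livers. *Timd4*, itself a phosphatidylserine receptor of resident macrophages, had 8 reads over the CDA-HFD livers and 576 over the ND livers, a pooled TPM ratio of 0.0119 (exact 95% counting interval 0.00513 to 0.0237). *Cd5l*, the marker of highest level, was not called at 0.72 ± 0.07. Of 12 endothelial markers, 1 rose (*Lyve1*, 2.32 ± 0.18) and 1 fell (*Kdr*, −1.05 ± 0.12, and −0.96 without CDA-HFD replicate 2, where it was not called), with a median of −0.36 and sums of 249 to 307 TPM in CDA-HFD livers and 289 to 305 TPM in ND livers. *Stab1* was higher relative to the endothelial marker *Pecam1*, at ratios of 2.10, 2.09 and 1.89 in CDA-HFD livers and 0.999, 0.969 and 0.899 in ND livers (log2 difference 1.08 ± 0.07, exact permutation p = 0.1, n = 3 each). Of 12 stellate cell and fibroblast markers, 9 rose (median 2.03, led by *Col1a1* at 5.07 ± 0.12), with sums of 2376 to 2557 TPM in CDA-HFD livers and 428 to 468 TPM in ND livers. Of 10 hepatocyte markers 0 were called (median −0.30), although 2 fell with median-of-ratios scaling and 1 without CDA-HFD replicate 2, with sums of 29361 to 31906 TPM in CDA-HFD livers and 37224 to 37902 TPM in ND livers. Among all genes tested, 21.1% rose and 3.79% fell. The part of these cell types in the members' changes was not tested.

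Most other receptors and bridges for dying cells rose. Of 19 tested, 12 rose and 2 fell (median 2.02), against 21.1% and 3.79% of all genes tested (median 0.32). The macrophage gene *Trem2*, whose product binds lipids of dying cells, averaged 250 ± 24.6 TPM in CDA-HFD livers and 1.54 ± 0.746 TPM in ND livers (6.66 ± 0.20), and *Anxa1*, which binds phosphatidylserine, rose by 4.61 ± 0.12. The falls were in *Timd4* (−3.64 ± 0.15) and in *Calr* (−1.06 ± 0.09), which encodes the chaperone calreticulin, an eat-me signal at the cell surface. The call of *Calr* was lost with quantile normalization (−0.91) and without ND replicate 3 (−0.96). Among find-me signals and their receptors, 7 of 10 rose and 1 fell (median 1.80), and 4 rose with a minimum mean of 5 TPM, where fewer were tested. *Cx3cr1*, the fractalkine receptor gene, and *Cx3cl1*, that of its ligand, rose by 4.13 ± 0.10 and 3.59 ± 0.12, and *S1pr1*, a receptor for sphingosine 1-phosphate, fell by 1.74 ± 0.14 on the log2 scale. Among signals against engulfment, 3 of 5 rose and 0 fell (median 2.2). *Sirpa*, the macrophage receptor for CD47, averaged 178 ± 6.72 TPM in CDA-HFD livers and 14.7 ± 1.23 TPM in ND livers (3.51 ± 0.08), while *Cd47* was at 0.97 ± 0.07, just below the fold limit. *Cd24a*, which signals to Siglec receptors, rose by 3.47 ± 0.10.

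Downstream of the receptors, 11 of 18 engulfment signalling genes rose and 0 fell (median 1.56), led by the kinase gene *Syk* at 2.89 ± 0.09 and *Dock2*, which activates Rac in leukocytes, at 2.79 ± 0.12. Of 20 genes for LC3-associated phagocytosis and corpse digestion, 5 rose and 0 fell, near the 21.1% of all genes tested that rose. The median of 0.40 was also close to that of all genes tested. The rises were led by *Cyba* (3.70 ± 0.13) and *Cybb* (3.10 ± 0.08), subunits of the phagocyte NADPH oxidase. Of 15 genes for sterol sensing, lipid efflux and metabolism after engulfment, 6 rose and 0 fell (median 0.58), against 21.1% and 3.79% of all genes tested. The 6 were *Pparg*, *Ppard*, *Abcg1*, *Ucp2*, the glucose transporter gene *Slc2a1* and the kinase gene *Sgk1*. Under median-of-ratios scaling 3 rose, and likewise under quantile normalization. *Abca1*, a cholesterol efflux gene, averaged 46.2 ± 11.8 TPM in CDA-HFD livers and 68.3 ± 4.71 TPM in ND livers. It did not overlap between the diets but was not called (−0.59 ± 0.18). *Ucp2*, a mitochondrial carrier that phagocytes use during uptake, rose by 3.37 ± 0.08. *Nr1h3*, which encodes the oxysterol receptor LXRα, was at 153 ± 12.98 TPM in CDA-HFD livers and 149 ± 7.53 TPM in ND livers (0.03 ± 0.08).

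**Figure D4:**
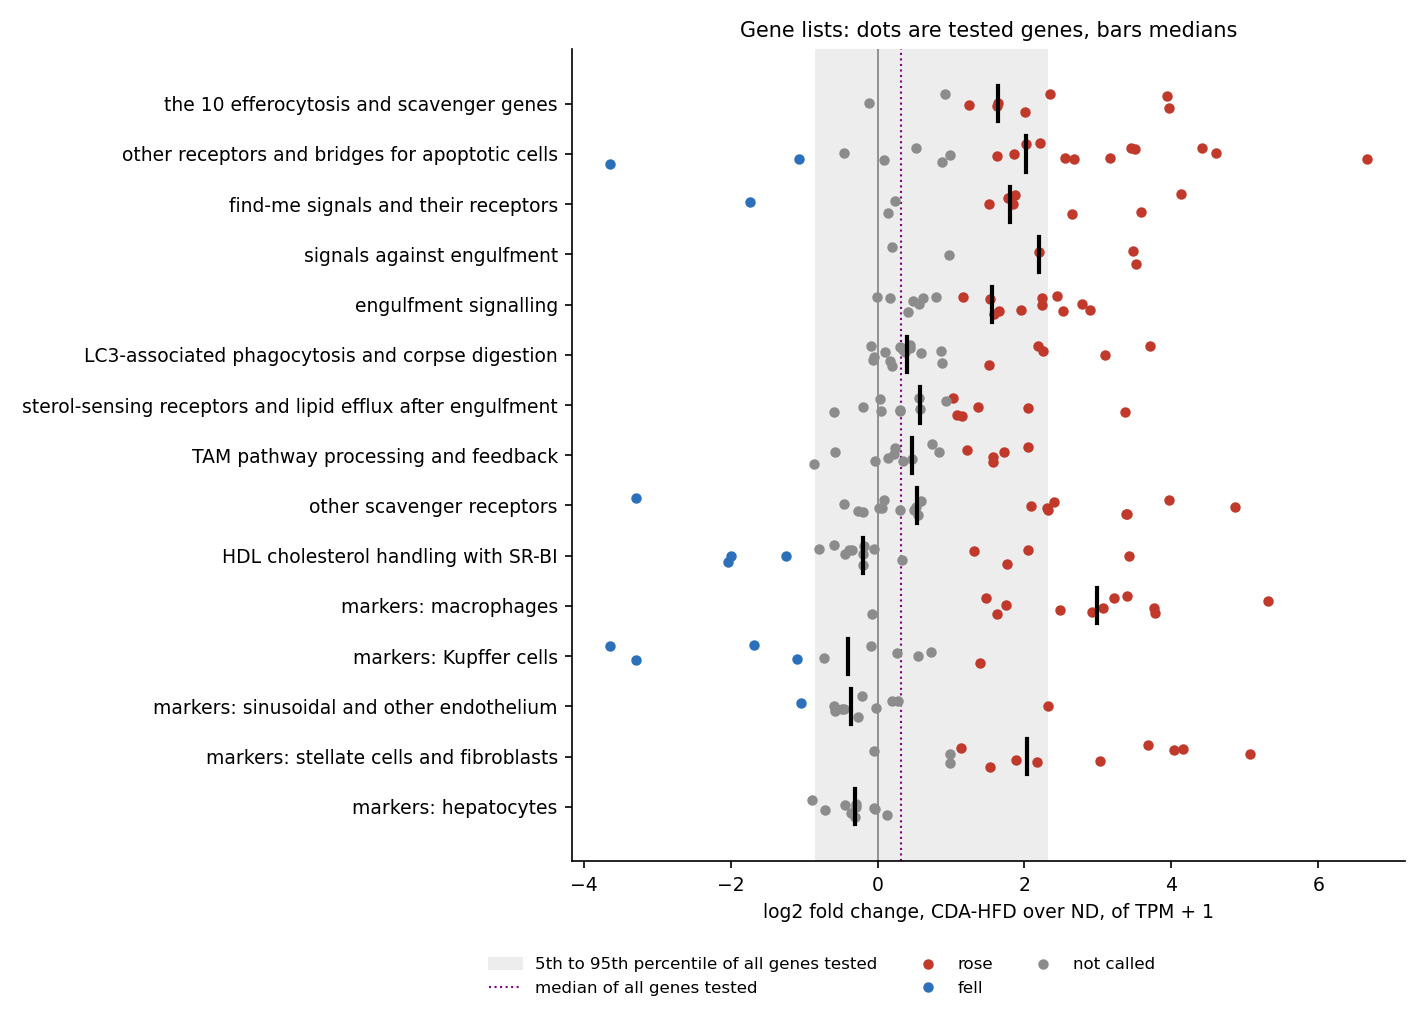
Log2 fold change of CDA-HFD over ND on TPM + 1 for each tested gene of each list (dots, coloured by call), with bars at list medians, a dotted line at the median of all genes tested (0.32) and a grey band from their 5th to their 95th percentile. The medians of the members (1.65) and of the other receptors and bridges (2.02) lie to the right of that line, and those of the Kupffer cell (−0.41), endothelial (−0.36) and hepatocyte (−0.30) markers to its left.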

How the data were processed

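RNA-seq was made from 6 livers, 3 per diet, grouped by the labels. The deposited TPM had been made by the authors, per the submitters' processing notes with Trimmomatic 0.39.0, HISAT2 2.2.1 and featureCounts 2.0.1 on GRCm38 (mm10). Libraries came from a Nextera XT kit; the annotation release and strand setting are not given in the sources used here. TPM is relative to the whole library, so large changes of abundant transcripts shift all other values.

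Reads were recovered by multiplying TPM by merged exon lengths of the GENCODE M21 basic annotation, from which coordinates were also taken. Of the genes, 53255 matched by name, and lengths were used for the 53149 with 1 annotated gene of that name. Between 98.4% and 98.5% of values came out whole within 0.01 reads. Counting intervals are exact at 95%.

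Log2(TPM + 1) was fitted with limma 3.58.1 (R 4.3.3), with a term for diet alone and trended eBayes moderation, two-sided, over genes averaging 1 TPM or more. Ratios used a pseudocount of 0.1 TPM for log2 differences and were tested by exact permutation. No replicate pairing was assumed. RefSeq promoters were scanned on both strands; motifs were searched in the 250 bases upstream. The fit was tested on simulated data.

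All members were named, with the 2 largest rises and falls called in each list (or the gene of highest TPM where none was called), the genes of the ratios, and in marker lists the gene of highest TPM. *Itgav*, *Itgb3*, *Itgb5*, *Adam10*, *Adam17*, *Ggcx*, *Pdzk1*, *Cd47*, *Nr1h3*, *Pdgfra*, *Pdgfrb*, *Col3a1*, *Apoa1*, *Tat*, *Cps1*, *Soat2*, *Abca1*, *Pparg*, *Ppard*, *Slc2a1* and *Sgk1* were added after their values were seen. Members, lists and tests were chosen with earlier results of these data known. Alternatives were other pseudocounts (0.1 and 0.5), low-value filters, median-of-ratios and quantile scaling, removal of the 50 most abundant genes, other eBayes settings, a replicate block, voom on recovered reads and leaving out each library.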

Additional observations from a re-analysis of the deposited data

How the results depend on the processing

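Across 17 alternatives, the 9 tested members kept their direction, and 7 rose except under median-of-ratios and quantile scaling, where 6 did (*Stab1* at 0.89 and 0.88). Log2 fold changes ranged over the alternatives from 3.61 to 4.02 for *Mfge8*, 3.58 to 3.98 for *Cd68*, 1.99 to 2.40 for *Axl*, 1.64 to 2.08 for *Gas6*, 1.29 to 1.70 for *Mertk*, 1.27 to 1.69 for *Msr1* and 0.55 to 0.94 for *Pros1*. Of all genes, 1914 rose with a minimum mean of 5 TPM (fewer genes tested) and 1718 with quantile normalization, while 976 fell under median-of-ratios scaling and 1201 under quantile normalization. Rises were 84.8% of calls by TPM, 70.7% by median-of-ratios and 58.9% by quantiles. The median over all genes was 0.32 by TPM, −0.01 by median-of-ratios and −0.11 by quantiles on the log2 scale. Small values changed sign: *Marco* −0.061 (quantile), *Pecam1* −0.16 (median-of-ratios) and −0.25 (quantile), and *Scarb2* −0.35 (median-of-ratios), −0.062 (quantile), −0.068 (without the 50 most abundant genes), −0.034 (voom on recovered reads) and −0.042 to 0.048 with 1 library left out. With 1 library left out, the log2 difference ranged from −0.65 to 0.021 for *Tyro3* to *Mertk*, from −0.016 to 0.065 for *Msr1* to *Csf1r* (−0.0016 with a pseudocount of 1) and from −0.0068 to 0.11 for *Mertk* to *Csf1r*. The cause of these shifts was not tested. Of 578 list counts, 13 moved by over 1.5 times or to or from 0, among them that of lymphocyte and neutrophil markers. Of these markers, 5 rose with a minimum mean of 5 TPM, where fewer of them were tested, and 5 with quantile normalization. *Calr* lost its call at −0.91 (quantile) and −0.96 (without ND replicate 3), and *Kdr* at −0.96 (without CDA-HFD replicate 2).

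Replicate numbers are shared by the diets, but same-numbered libraries correlated at only 0.086, 0.039 and 0.089 in their deviations, so the numbers were not taken as pairs, although each library correlated best with its own number. With the replicate block, 3128 genes rose and 559 fell, 3668 of 3673 calls were shared, and no call of a member changed. *Tyro3* is limited by depth, with 3 to 36 reads per library.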

Other observations

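Markers of other cells that can hold or call for clearance also stood higher in CDA-HFD livers, where 21.1% of all genes tested rose. All 7 monocyte markers tested rose (median log2 fold change 2.68), among them *Ccr2*, the receptor that brings monocytes out of the marrow (3.39 ± 0.11), and *Plac8* (2.49 ± 0.09). Their summed level was 156 to 179 TPM in CDA-HFD livers and 17.6 to 19.5 TPM in ND livers. All 9 lymphocyte and neutrophil markers tested rose (median 1.95), with *Klrd1* of natural killer cells at 2.75 ± 0.22, and the neutrophil genes *S100a8* at 2.60 ± 0.24 and *S100a9* at 2.35 ± 0.29. All 6 cholangiocyte markers rose (median 3.21), with *Spp1* at 3.81 ± 0.07 and *Epcam* at 3.77 ± 0.10. *Spp1* is also expressed by macrophages.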
